A study of Mus musculus with 9 samples.

Results

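The enzymes that turn ammonia into urea and glutamine in the liver were examined in 9 mouse livers. The set held 9 genes of 20972 that could be named on the arrays: Nags, Cps1, Otc, Ass1, Asl and Arg1 of the urea cycle, Oat of ornithine breakdown, and the glutamine enzymes Gls2 and Glul. They were chosen by name for their function, but with earlier results of these data known. They were found by matching the RefSeq accession of each non-control probe to its gene symbol. They had 11 probes, 2 each for Otc and Ass1, and every probe was well above background on all 9 arrays.

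Total RNA from snap-frozen liver of male C57BL/6J mice aged 20 weeks was measured on 1-colour Agilent arrays, with 1 array per mouse and 3 mice per group. STAM-NON mice had received streptozotocin, a toxin of pancreatic beta cells, as newborns and a high-fat diet after weaning, with no treatment. STAM-INS mice carried the same injection and diet and were treated with insulin, given as glargine under the skin. Normal mice were chow-fed, without streptozotocin and without treatment, so that they differed from both STAM groups in the drug and the diet together. STAM livers can carry tumours at this age, and the sources used here do not say whether tumour tissue lay in the pieces that were taken. The slide that held the 6 STAM arrays held none of the 3 Normal arrays, and slide and group therefore cannot be told apart in any comparison with Normal.

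Ammonia released from amino acids is handled in order along the liver lobule. Hepatocytes near the portal vein release it from glutamine through Gls2, the liver-type glutaminase, and fix most of it as urea, whereas a thin layer of hepatocytes around the central vein captures the rest as glutamine through Glul, glutamine synthetase. The flux through the cycle follows protein intake, glucagon and glucocorticoids, and insulin opposes glucagon in this. Oat, ornithine aminotransferase, lies beside Glul around the central vein and carries ornithine towards glutamate.

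Levels are given as centred log2 signal, the log2 of the background-subtracted intensity from which the array's own 75th percentile was subtracted, so that 0 is the level of the spot at that percentile. Levels of different probes are not compared, because probes differ in brightness. The members' probes lay between 2.73 for Nags, on STAM-NON replicate 1, and 9.52 for Ass1, on Normal replicate 2, and no spot was saturated. Hepatocyte identity was checked with 10 marker genes, all of which were well above background on every array. Of 4 kidney, 4 adipose and 5 pancreatic markers only Ctrb1 and Cel of the pancreatic list could be tested, and Umod, Lep and Pnlip were not well above background on any array. The 3 mice of a group were separate animals, and their number limits the precision of every value below.

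Promoter sequences were listed for 5 of the 9 members. Of these, Otc, Oat and Glul had the largest differences from Normal and the widest spread in STAM-NON livers. The sequences before their start sites are shown. They are taken from RefSeq on GRCm38.p6 and run 5′ to 3′ over the 250 bases before the start of the transcript, at chrX:10252055-10252304 on the plus strand for Otc, chr7:132576399-132576648 on the minus strand for Oat and chr1:153899679-153899928 on the plus strand for Glul. Capitals mark CCAAT on either strand, the core of a common promoter element.
Otc: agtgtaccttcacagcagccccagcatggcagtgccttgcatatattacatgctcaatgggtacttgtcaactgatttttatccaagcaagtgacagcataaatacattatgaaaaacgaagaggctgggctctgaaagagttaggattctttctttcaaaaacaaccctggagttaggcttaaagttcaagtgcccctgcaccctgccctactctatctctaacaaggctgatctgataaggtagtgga
Oat: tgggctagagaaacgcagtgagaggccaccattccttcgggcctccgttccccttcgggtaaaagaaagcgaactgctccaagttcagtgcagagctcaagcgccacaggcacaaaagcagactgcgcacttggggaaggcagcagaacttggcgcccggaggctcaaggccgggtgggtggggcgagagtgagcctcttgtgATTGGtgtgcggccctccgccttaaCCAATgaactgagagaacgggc
Glul: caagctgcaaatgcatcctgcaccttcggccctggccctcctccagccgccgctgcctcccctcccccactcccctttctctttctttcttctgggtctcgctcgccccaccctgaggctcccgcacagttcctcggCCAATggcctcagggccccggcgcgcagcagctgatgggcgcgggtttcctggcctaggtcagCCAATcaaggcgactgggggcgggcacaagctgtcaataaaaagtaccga
The search found this motif 2 times in Oat, at 47 and 22 bases before the start, and 2 times in Glul, at 113 and 50 bases before it. No match was found in Otc, nor in Ass1 or Nags, whose sequences were searched too. Over all 32851 sequences of this kind, 33.8% held the motif, so that a match is common. The share of G and C was 43.6% in Otc, against 60.0% in Oat and 64.8% in Glul.

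In STAM-NON livers all 9 members were lower than in Normal livers on average, and Cps1, Otc and Arg1 fell. Otc fell the most of these, to 46.3% of the Normal level, with Cps1 at 63.0% and Arg1 at 74.6%. These 3 of 9 called lower stand beside 9.76% of all 26278 tested probes, and the 9 of 9 below 0 stand beside 63.2% of them. The median difference of the members was -0.46 on the log2 scale, and that of all tested probes was -0.13 with this scaling of the arrays. In bulk tissue, fewer cells that hold a transcript and less of it in each cell cannot be told apart.

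**Figure D1:**
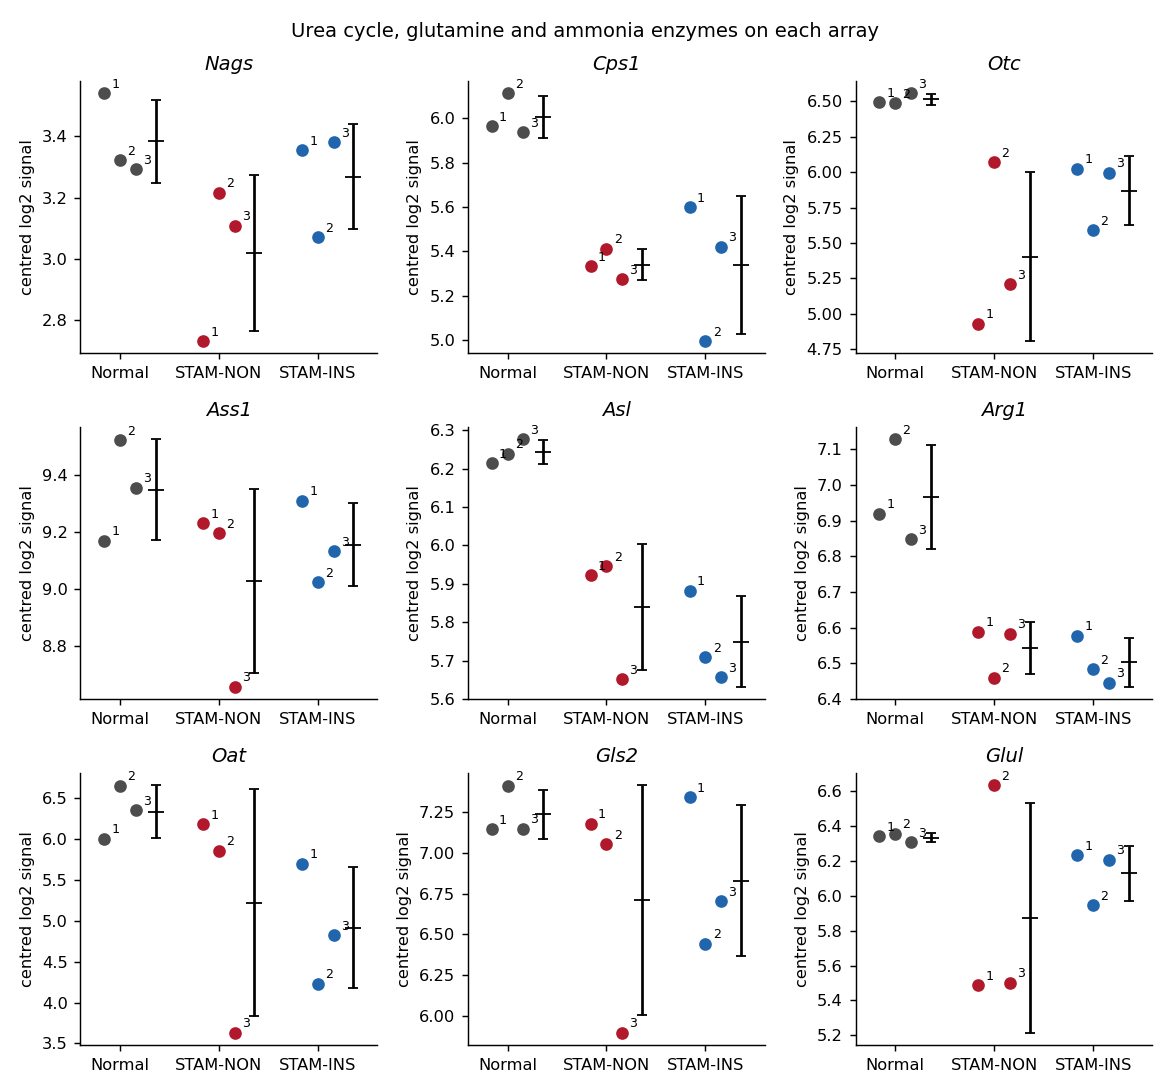
Each panel plots 1 gene as centred log2 signal (vertical axis, range set per panel and not starting at 0) for the 3 Normal, 3 STAM-NON and 3 STAM-INS arrays, numbered by replicate, with the mean and SD of the group beside the points (n = 3). Cps1, Otc, Asl and Arg1 sat lower on all 6 STAM arrays than on any Normal array, whereas Oat, Gls2 and Glul spread widely among the STAM-NON mice.

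Nags makes N-acetylglutamate, without which Cps1 is inactive, so that the pair opens the cycle. The signal of Nags was 2.73, 3.22 and 3.11 on STAM-NON replicates 1, 2 and 3 and 3.54, 3.32 and 3.29 on the Normal arrays. The groups did not overlap, but the difference of -0.37 ± 0.16 (SE) did not pass the threshold (adjusted p = 0.14). Cps1 forms carbamoyl phosphate from ammonia and bicarbonate in mitochondria and is the rate-limiting enzyme. Its signal was 5.33, 5.41 and 5.27 on the STAM-NON arrays and 5.96, 6.11 and 5.94 on the Normal arrays. The 3 STAM-NON mice lay within 0.14 of each other and all below the Normal mice. The difference was -0.67 ± 0.16 (SE, adjusted p = 0.0297, 95% interval -1.03 to -0.30).

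Otc joins carbamoyl phosphate to ornithine and makes citrulline, the last step inside mitochondria. Its brighter probe read 4.93, 6.07 and 5.21 on STAM-NON replicates 1, 2 and 3 and 6.50, 6.49 and 6.56 on the Normal arrays. STAM-NON replicate 2 stood well above the other mice of its group and still below every Normal mouse, which differed among themselves by only 0.07. The difference was -1.11 ± 0.27 (SE, adjusted p = 0.0316, 95% interval -1.73 to -0.49). The dimmer probe, spotted 10 times on each array, gave -1.04 ± 0.22 (SE, adjusted p = 0.0237) with the mice in nearly the same order, and the SD between its spots on 1 array was at most 0.07, against an SD of 0.46 between the STAM-NON mice.

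Ass1 and Asl follow in the cytosol, the one condensing citrulline with aspartate and the other releasing arginine and fumarate, and Arg1 splits arginine into urea and ornithine. Of these 3 genes, Arg1 passed the threshold. Ass1 read 9.23, 9.19 and 8.66 on the STAM-NON arrays and 9.17, 9.52 and 9.36 on the Normal arrays. These overlapped, and the difference of -0.32 ± 0.18 did not pass the threshold, nor did that of the dimmer probe (-0.31 ± 0.20, SE, adjusted p = 0.23 and 0.306). Asl read 5.92, 5.95 and 5.65 on the STAM-NON arrays and 6.21, 6.24 and 6.28 on the Normal arrays. The groups did not overlap, and the difference of -0.40 ± 0.12 (SE) lay just outside the threshold (adjusted p = 0.0532). Arg1 read 6.59, 6.46 and 6.58 on the STAM-NON arrays and 6.92, 7.13 and 6.85 on the Normal arrays. Its STAM-NON mice lay close together below the Normal mice, with a difference of -0.42 ± 0.11 (SE, adjusted p = 0.0403). In all, 5 of the 9 members lay below the Normal arrays without overlap (Nags, Cps1, Otc, Asl and Arg1), against 28.0% of all tested probes.

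The 3 genes of ornithine and glutamine handling did not pass the threshold in STAM-NON livers, and their mice disagreed. Oat read 6.18, 5.86 and 3.63 on STAM-NON replicates 1, 2 and 3 and 6.01, 6.66 and 6.36 on the Normal arrays. Replicate 3 carried a signal 5.86-fold below that of replicate 1, whereas replicate 1 lay among the Normal mice. The difference was -1.11 ± 0.65 (SE, adjusted p = 0.244), as large on average as that of Otc but with an interval from -2.59 to 0.36. Gls2 read 7.18, 7.05 and 5.90 on the STAM-NON arrays and 7.15, 7.41 and 7.15 on the Normal arrays, again with replicate 3 alone far below the others (-0.53 ± 0.35, SE, adjusted p = 0.31). Glul read 5.49, 6.63 and 5.50 on the STAM-NON arrays and 6.34, 6.36 and 6.31 on the Normal arrays. Here replicate 2 stood above every Normal mouse while replicates 1 and 3 lay far below them, and the difference was -0.46 ± 0.28 (SE, adjusted p = 0.272). Without STAM-NON replicate 2 the difference of Glul was -0.84 and passed (adjusted p = 0.0109).

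The calls in STAM-NON livers changed with single arrays. Without STAM-NON replicate 1 or 3, or without any 1 of the Normal arrays, 0 of the 9 members passed, while the calls over all probes fell from 4220 to between 940 and 1898. Without STAM-NON replicate 2, 3 members passed (Cps1, Otc and Glul) beside 5817 probes. Without STAM-INS replicate 1, 2 or 3 it was 2, 2 and 1, beside 2999 to 3334 probes. By unadjusted p, 5 of the 9 members passed, beside 35.8% of all probes. The difference itself lay between -0.61 and -0.70 for Cps1 and between -0.34 and -0.48 for Arg1. That of Otc ran from -0.87 without STAM-NON replicate 1 to -1.45 without STAM-NON replicate 2.

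Marker transcripts of other cell types differed in the same livers, and their part in the differences was not tested. Against Normal, 6.30% of all tested probes were called higher in STAM-NON livers and 5.16% in STAM-INS livers. Of 9 macrophage markers tested, 4 rose in STAM-NON livers and 0 fell, among them Trem2 by 2.93 and Cd5l by 1.33 on the log2 scale. Their mean level above that of the Normal mice was 0.74 to 1.79 in STAM-NON, 0.93 to 1.48 in STAM-INS and -0.20 to 0.21 in Normal. The mean over 8 stellate and fibroblast markers was 0.50 to 1.22, 0.06 to 0.80 and -0.35 to 0.31 in the same order, with Lum the 1 gene that passed in STAM-NON livers. Of 5 cholangiocyte markers tested, 3 rose in STAM-NON livers (Krt7, Sox9 and Spp1) and 1 in STAM-INS livers (Sox9). Of 6 endothelial markers, 1 rose in STAM-NON livers (Lyve1, by 3.01 on the log2 scale, adjusted p = 0.024), and 2 were below 0 there. The median difference of the 6 was 0.19 in STAM-NON livers. Their mean above Normal, which includes the large value of Lyve1, was 0.06 to 0.90 in STAM-NON, -0.35 to 0.60 in STAM-INS and -0.08 to 0.08 in Normal. Of 4 lymphocyte markers tested, 0 passed in either STAM group. The 10 hepatocyte markers had a median difference of -0.24 in STAM-NON livers and 0 of them passed there, with Alb, albumin, at -0.34 ± 0.12 (SE, adjusted p = 0.0825) and Ttr, transthyretin, at -0.62 ± 0.22 (adjusted p = 0.0849). A dimmer probe of Cyp2e1, a gene of that list, did pass lower, whereas its brightest probe did not. The dimmer probe was at 40.0% of Normal in STAM-NON and 37.7% in STAM-INS livers (adjusted p = 0.0446 and 0.0397). On STAM-NON replicate 2 the mean over the macrophage markers was lowest within the group at 0.74 and that over the hepatocyte markers highest at -0.05. Nags, Cps1, Otc, Asl and Glul were highest within the group on that array and Arg1 lowest, while Ass1, Gls2 and Oat were highest on replicate 1. Replicate 2 also had 47.8% of its spots well above background, against 59.3% and 63.1% on replicates 1 and 3. These orders were read after the values were seen and were not tested.

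Insulin treatment was compared with none in the 2 STAM groups, to see whether it changed these enzymes. In STAM-INS livers 0 of the 9 members passed the threshold against STAM-NON, by the adjusted p or by an unadjusted p under 0.05. Of all tested probes, 0.0913% were called by the adjusted p and 8.78% by the unadjusted p. The differences were mixed in sign, 4 of 9 being below 0 beside 45.1% of all probes, and the members' median was 0.12 against 0.03 for all probes. No member separated the groups, which 4.92% of all probes did downwards and 7.24% upwards.

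Among the members, Otc had the largest difference, 0.47 ± 0.27 (SE, adjusted p = 0.653, 95% interval -0.15 to 1.09). It read 6.02, 5.59 and 5.995 on STAM-INS replicates 1, 2 and 3, within the range of the STAM-NON mice. The dimmer Otc probe gave 0.43 ± 0.22 (SE, adjusted p = 0.623). Nags differed by 0.25 ± 0.16 and Glul by 0.25 ± 0.28, with adjusted p of 0.695 and 0.835. Nags read 3.35, 3.07 and 3.38 on the STAM-INS arrays, and Glul read 6.23, 5.95 and 6.21. For both genes these values lay between the lowest STAM-NON mice and the highest Normal mice.

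The differences of Cps1, Asl, Arg1, Ass1 and Gls2 between the STAM groups lay between -0.09 and 0.13. Cps1 read 5.60, 4.995 and 5.42 on the STAM-INS arrays, and the 2 STAM means were 5.34 and 5.34, with an interval of the difference from -0.36 to 0.36. The interval ran from -0.36 to 0.18 for Asl, from -0.30 to 0.22 for Arg1 and from -0.29 to 0.54 for Ass1, so a change in these 3 genes beyond those bounds lies outside the 95% interval. For Gls2 it ran from -0.69 to 0.93. Oat was at -0.31 ± 0.65 (SE, adjusted p = 0.92) with an interval from -1.78 to 1.17, and its difference was -1.10 without STAM-NON replicate 3 and 0.17 without STAM-NON replicate 1. The wide intervals of both genes leave larger changes undecided. STAM-NON lay wholly in slide row 1 and STAM-INS in both rows. Within row 1, STAM-INS replicate 1 lay above the mean of the 3 STAM-NON arrays for all 9 members, by 0.03 for Arg1 to 0.63 for Gls2, with 0.47 for Oat.

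**Figure D2:**
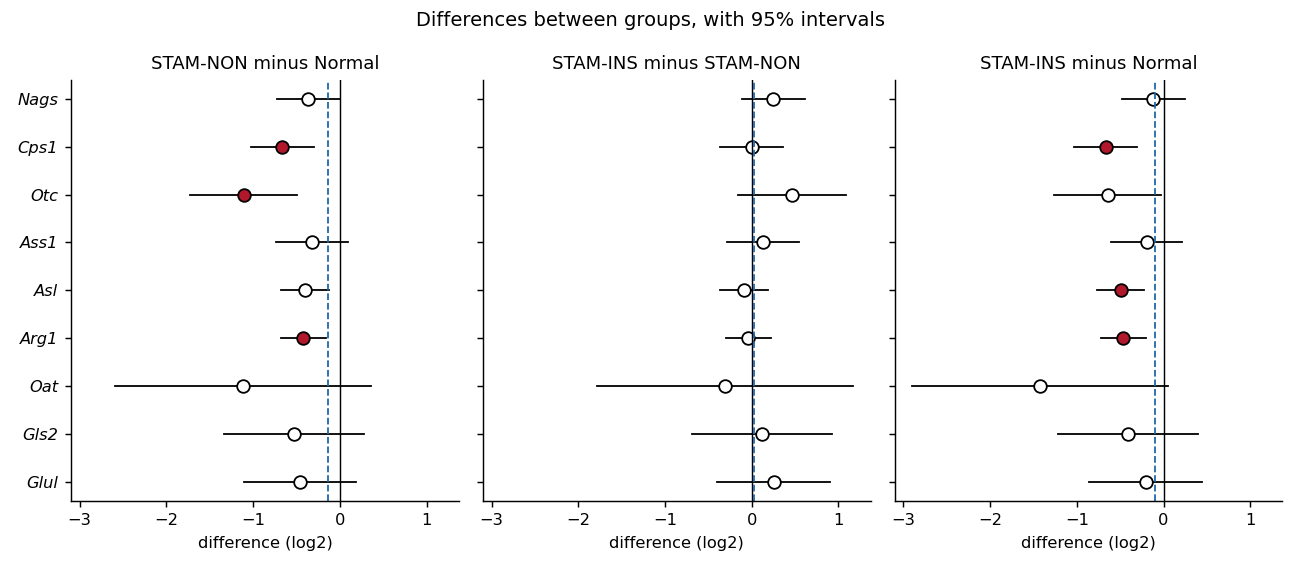
Points are the differences between group means on the log2 scale for each gene in the 3 comparisons, with 95% intervals from limma as lines. Red points passed the threshold, and the dashed line is the median of all tested probes; Cps1, Otc and Arg1 passed in STAM-NON against Normal, none in STAM-INS against STAM-NON, and Cps1, Asl and Arg1 in STAM-INS against Normal.

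Insulin-treated livers were then set against Normal livers. This comparison shares the Normal arrays with the first one, so that their values are not independent. Again all 9 members were lower on average, beside 59.6% of all probes, and Cps1, Asl and Arg1 fell, 3 of 9 beside 8.72% of all probes called lower. The members' median was -0.46 against -0.09 for all probes. Cps1 was at 63.0% of the Normal level (-0.67 ± 0.16, SE, adjusted p = 0.0309), Asl at 71.0% (-0.49 ± 0.12, adjusted p = 0.0326) and Arg1 at 72.5% (-0.46 ± 0.11, adjusted p = 0.0328).

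Asl read 5.88, 5.71 and 5.66 and Arg1 read 6.58, 6.48 and 6.45 on STAM-INS replicates 1, 2 and 3, all below the Normal arrays. Otc did not pass in this comparison (-0.64 ± 0.27, SE, adjusted p = 0.141), although its 3 STAM-INS mice too lay below the Normal mice, and the difference between its 2 STAM groups, given above, did not pass either. Oat read 5.70, 4.23 and 4.82, below every Normal mouse, and had the largest difference of the members with the widest error (-1.42 ± 0.65, SE, adjusted p = 0.166). With Glul, 6 of 9 members did not overlap with Normal, beside 29.0% of all probes. Ass1 (9.31, 9.02 and 9.13) and Gls2 (7.34, 6.44 and 6.70) overlapped with Normal, as did Nags.

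Here too single arrays decided calls. Without STAM-INS replicate 2 or 3, or without any 1 of the Normal arrays, 0 members passed, while the calls over all probes fell from 3647 to between 1038 and 1893. Without STAM-INS replicate 1 it was 2, with Arg1 lost, beside 2193 probes. Without STAM-NON replicate 2 Otc passed as well (adjusted p = 0.0420), and without STAM-NON replicate 3 Oat did (adjusted p = 0.0391), since those arrays add to the shared estimate of the spread. Slide row 2 held 2 STAM-INS arrays on slide 1 and all Normal arrays on slide 2. Within that row number the differences were -0.80 for Cps1, -0.56 for Asl and -0.50 for Arg1, with slide and group still not to be told apart.

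The STAM mice differed from each other, and the order of the mice was not the same for each member. Oat, Gls2 and Ass1 were lowest on the same arrays: STAM-NON replicate 3 was the lowest of the 9 mice for all 3 genes and STAM-INS replicate 2 the second lowest. Otc, Glul and Nags followed another order, in which STAM-NON replicate 1 was the lowest of all mice and STAM-NON replicate 2 the highest of its group. Glul and Otc had SDs of 0.66 and 0.60 in STAM-NON, 0.16 and 0.24 in STAM-INS, and 0.03 and 0.04 in Normal (n = 3 each). Oat had SDs of 1.39, 0.74 and 0.33 in the same groups. Cps1 and Arg1 followed neither order. Asl shared the first in part, being lowest on STAM-NON replicate 3 (5.652) but second lowest on STAM-INS replicate 3 (5.657). Arg1 had SDs of 0.07 in both STAM groups, and Cps1 had 0.07 in STAM-NON and 0.31 in STAM-INS. These orders were read from single arrays after the values were seen and carry no test.

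**Figure D3:**
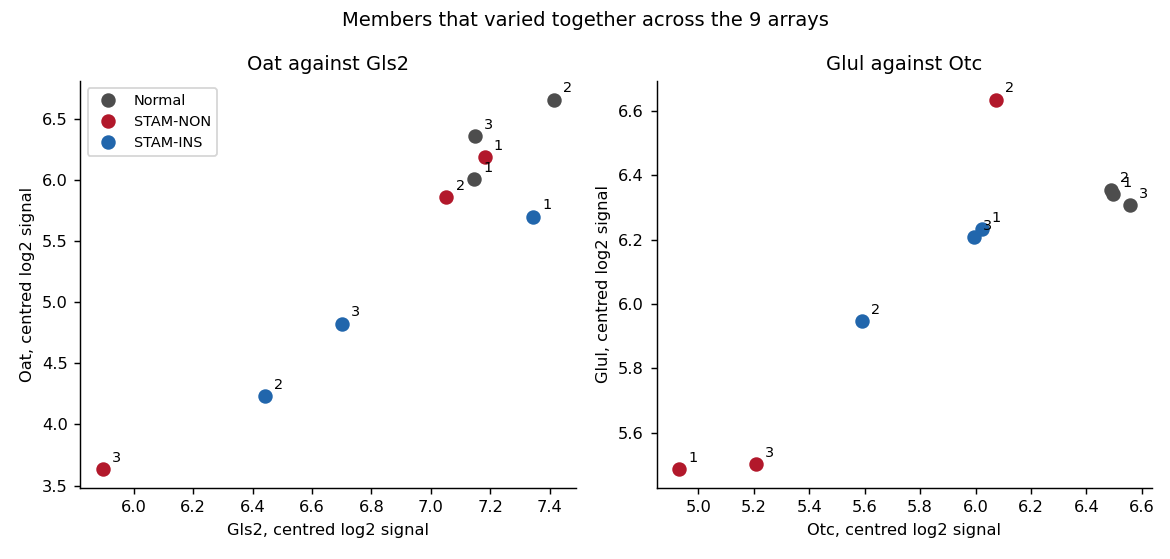
The left panel plots Oat against Gls2 and the right panel Glul against Otc, each as centred log2 signal with 1 point per array, coloured by group and numbered by replicate. STAM-NON replicate 3 lies lowest for Oat and Gls2, whereas replicates 1 and 3 both lie low for Glul and Otc and replicate 2 lies high.

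Globin transcripts also differed between the STAM mice. Hbb-bt, a beta-globin gene, read 5.07, 6.81 and 8.29 on STAM-NON replicates 1, 2 and 3, 5.32, 8.64 and 7.63 on the STAM-INS arrays and 5.15, 5.25 and 5.35 on the Normal arrays. Thus within each STAM group its order was the reverse of that of Oat. Over the erythroid list, 3 of 4 markers could be tested, and the mean above Normal was -1.29 to 1.45 in STAM-NON, -0.57 to 1.82 in STAM-INS and -0.08 to 0.12 in Normal. Alas2, the erythroid enzyme of haem synthesis, did not follow the globins, at 1.79, 4.18 and 4.01 in STAM-NON against 4.89 to 5.24 in Normal. This link was noticed after the values were seen, and its part in the Oat result was not tested.

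Genes of like pattern were sought for the 4 members that passed in any comparison, by Pearson r over the 9 arrays among 13385 other named genes. Symbols of the Gm, Rik and LOC kinds count among the 13385 but were left out when the 3 highest genes per member were taken. For Cps1 these were Afmid, of tryptophan breakdown, with r = 0.991, Mpp4 with 0.982 and Pon1, a liver esterase of HDL, with 0.976. For Otc they were Skiv2l, Dpy19l3 and Il1rap, with r from 0.985 to 0.986. Asl had Ccdc42, Zfp574 and Lrrc27 with r from 0.973 to 0.982, and Arg1 had Smap2, Stag2 and Tcp11l2 with r from 0.957 to 0.959. The arrays fall into groups on different slides, so such values describe a shared pattern of groups and slides and carry no test.

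The supply of substrates was read from a list of other genes of nitrogen handling, of which 71 of 76 could be tested. Against Normal, 3 of them rose in STAM-NON livers and 11 fell, 4.23% and 15.5% of those tested beside 6.30% and 9.76% of all probes, and their median was -0.33. In STAM-INS livers 3 rose and 14 fell, 4.23% and 19.7% beside 5.16% and 8.72%, with a median of -0.41. Between the STAM groups 0 of the 71 passed. The lists were made with earlier results of these data known, so these counts are a description.

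Cps1 needs bicarbonate and ammonia. Car5a, the mitochondrial carbonic anhydrase that supplies the bicarbonate, read 3.85, 4.16 and 3.20 on the STAM-NON arrays, 3.90, 3.50 and 3.79 on the STAM-INS arrays and 4.55, 4.98 and 4.73 on the Normal arrays. It fell to 49.4% and 49.2% of the Normal level (adjusted p = 0.0305 and 0.0315) with no overlap. Mdh1, cytosolic malate dehydrogenase, which works on malate made from the fumarate that Asl releases, fell in STAM-NON livers (-0.77 ± 0.19, SE, adjusted p = 0.0319). Sirt5, which activates Cps1 by removing acyl groups, was at 0.08 in STAM-NON livers and did not pass (adjusted p = 0.846). Among 16 carriers tested, 2 fell in STAM-NON livers, 12.5% beside 9.76% of all probes, and 0 rose. These were Slc38a3, which takes glutamine into periportal cells, and Slc1a4, a carrier of neutral amino acids. They fell by 0.61 and 0.84 on the log2 scale, with adjusted p of 0.0394 and 0.0124. A dimmer probe of Slc1a5, well above background on 0 Normal arrays, rose by 1.46 (adjusted p = 0.0479), whereas the brightest probe of that gene did not pass. Slc25a15, which exchanges ornithine and citrulline over the mitochondrial membrane, was at 0.06 (adjusted p = 0.888). Slc7a1, a carrier of arginine, read above every Normal array in STAM-NON livers, but its 0.89 did not pass (adjusted p = 0.056).

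Among the enzymes around glutamate both directions occurred. Asns, asparagine synthetase, which uses glutamine as its nitrogen donor, rose the most. It read 1.58, 1.74 and 2.15 on the STAM-NON arrays, 2.95, 1.35 and 1.98 on the STAM-INS arrays and -0.81, -0.63 and -0.70 on the Normal arrays, with differences of 2.54 ± 0.35 and 2.81 ± 0.35 (SE, adjusted p = 0.00818 and 0.00381). Prodh, which breaks proline down, fell by 1.09 and 0.99 on the log2 scale. Prodh2 and Aldh4a1, of hydroxyproline and proline breakdown, fell as well, by 0.68 and 0.77 in STAM-NON livers. Gpt, alanine aminotransferase, which feeds alanine nitrogen to glutamate, fell by 1.20 in STAM-INS livers and did not pass in STAM-NON livers (-0.68, adjusted p = 0.0881). Glud1, glutamate dehydrogenase, was at -0.30 in STAM-NON livers (adjusted p = 0.146).

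**Figure D4:**
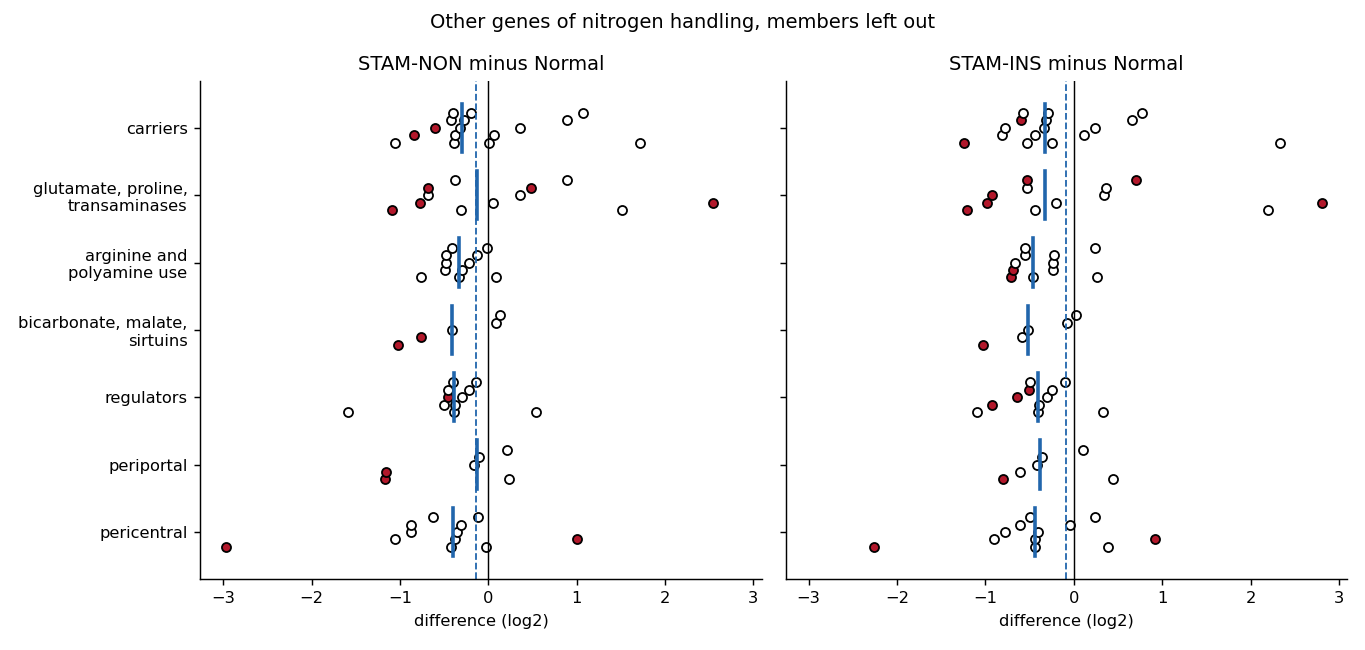
Points are the listed carriers, enzymes, regulators and zoned genes without the members, 1 per gene, by list (rows). The horizontal axis is the difference from Normal on the log2 scale for STAM-NON (left) and STAM-INS (right). Red points passed the threshold, blue bars are medians of a list and the dashed line is the median of all tested probes; Asns lies farthest right of the genes that passed, at 2.54 and 2.81, and Cyp1a2 of the pericentral list farthest left, at -2.97 and -2.26, and genes not well above background on the Normal arrays are drawn at their fitted values.

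In the use of arginine and ornithine, 0 of 11 genes tested passed in STAM-NON livers and 2 fell in STAM-INS livers, 18.2% beside 8.72% of all probes. These were Odc1, ornithine decarboxylase of polyamine synthesis, at -0.71 and Azin1, which protects it, at -0.69 on the log2 scale (adjusted p = 0.0155 and 0.0423). The difference of Odc1 between the STAM groups did not pass (-0.50, adjusted p = 0.425). Arg2, the second arginase, was dim on most arrays and was not tested.

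Of 11 regulators known to act on these enzymes, 1 fell in STAM-NON livers and 3 in STAM-INS livers, 9.09% and 27.3% beside 9.76% and 8.72% of all probes. In STAM-NON livers 10 of the 11 were below 0, beside 63.2% of all probes. Nr1h4, the bile acid receptor FXR, fell by 0.46 and 0.51 on the log2 scale (adjusted p = 0.0454 and 0.0364). Klf15, which links glucocorticoids and fasting to amino acid breakdown, fell by 0.92 and Foxo1, which insulin signalling inactivates, by 0.64 in STAM-INS livers (adjusted p = 0.0172 and 0.0326). In STAM-NON livers these 2 genes did not pass (-0.50 and -0.30, adjusted p = 0.0935 and 0.203). Gcgr, the glucagon receptor, was at -0.46 in STAM-NON livers (adjusted p = 0.058) and Hnf4a at -0.22 (adjusted p = 0.373).

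Since the members are zoned, other genes of the same zones were read beside them. Of 6 further periportal genes, 2 fell in STAM-NON livers, 33.3% beside 9.76% of all probes. Cyp2f2 fell by 1.16 and Hal, which breaks down histidine, by 1.16 on the log2 scale there (adjusted p = 0.0133 and 0.0241). In STAM-INS livers Cyp2f2 was the 1 gene of the 6 that fell against Normal, 16.7% beside 8.72% of all probes. Hal read 5.36, 5.85 and 5.02 on the STAM-NON arrays, 6.41, 5.86 and 6.22 on the STAM-INS arrays and 6.27, 6.91 and 6.54 on the Normal arrays, and did not pass in STAM-INS livers against either group. Of 12 further pericentral genes, 11 were below 0 in STAM-NON livers, beside 63.2% of all probes. Of these 12, 1 passed lower and 1 higher, 8.33% each, beside 9.76% and 6.30% of all probes. Cyp1a2 was down to 12.8% of Normal (adjusted p = 0.0108) and Slc13a3 up by 0.999 (adjusted p = 0.0244). These counts use the brightest probes, and the dimmer probe of Cyp2e1 given above, a gene of this list too, also passed lower. Cyp1a2 read 0.60, 2.26 and 0.26 on the STAM-NON arrays and Slc1a2, the glutamate carrier of the Glul-bearing cells, 2.43, 3.74 and 2.37. Replicate 2 stood highest for both, as it did for Glul. Oat, of the same zone, was highest on replicate 1, at 6.18 against 5.86 on replicate 2. These orders were read after the values were seen and were not tested. Slc1a2 read 3.99, 3.87 and 3.86 on the Normal arrays and did not pass (-1.06 ± 0.40, SE, adjusted p = 0.0981). The medians in STAM-NON livers were -0.13 for the further periportal and -0.40 for the further pericentral genes, and most genes of both lists did not pass.

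The size of the members' differences depended on how the arrays were scaled. Each of the 4 centrings subtracts 1 value per array, so the differences relative to the median of all probes are by construction the same under all 4, at -0.98 for Otc, -0.53 for Cps1 and -0.29 for Arg1 in STAM-NON livers. With quantile normalisation they were -0.79, -0.35 and -0.09, and with normexp background correction -0.81, -0.44 and -0.05. The median of all probes itself was -0.13 with the 75th percentile, -0.29 with the median of each array, 0.04 with the percentile over detected probes and 0.18 with the spike-in controls, which are RNAs added in equal amount to each labelling. With the spike-in controls 1 of the 9 members passed in STAM-NON livers (Otc, -0.80, adjusted p = 0.0491), and with quantile normalisation 0 passed. All 9 members stayed below 0 in STAM-NON livers under each scaling, except that Ass1 was at 0.04 after normexp background correction.

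**Figure D5:**
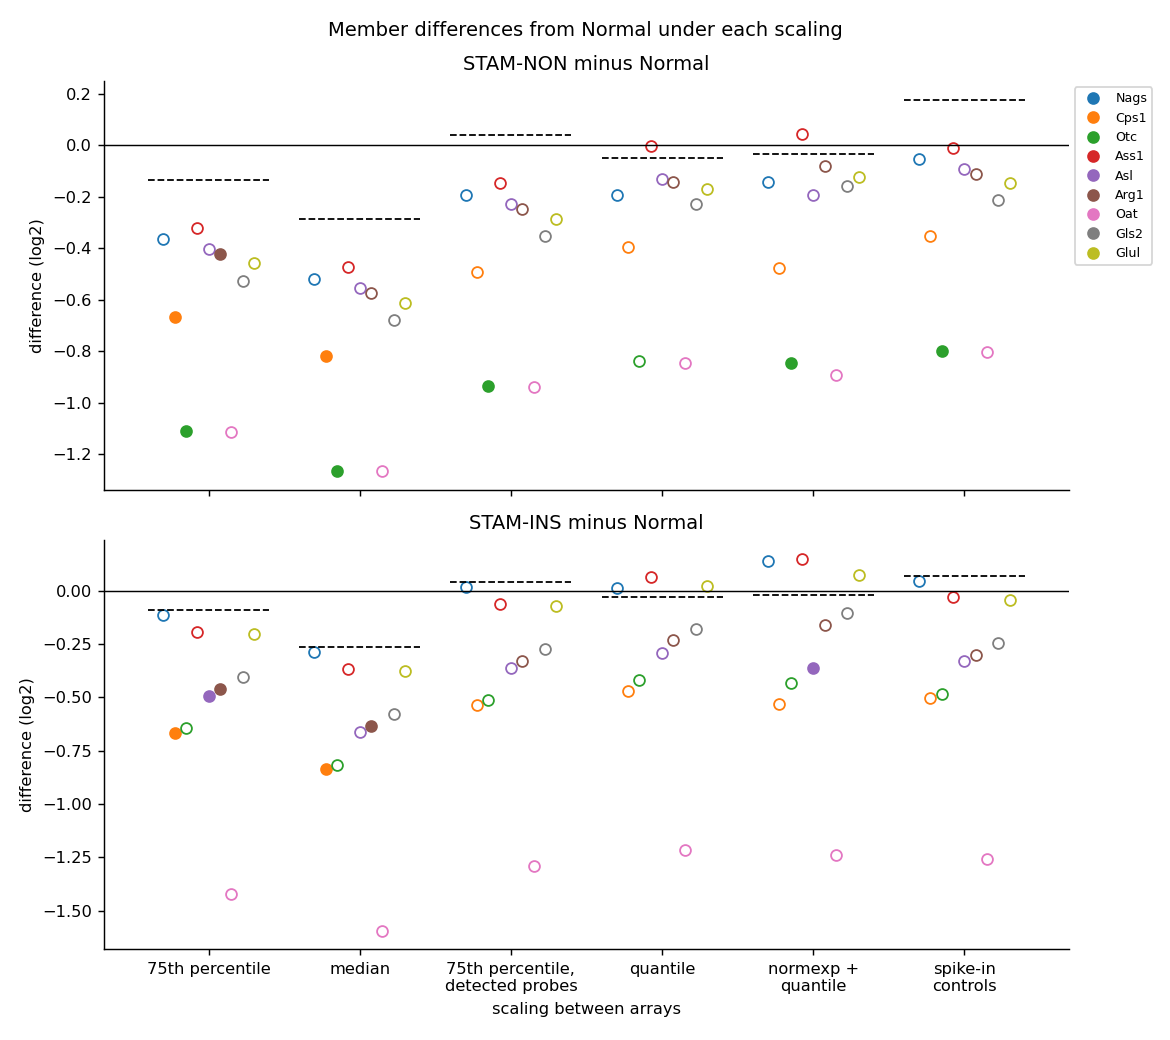
Each point is the difference of 1 member from Normal on the log2 scale for STAM-NON (top) and STAM-INS (bottom) under 6 scalings of the arrays, filled where it passed the threshold, and dashed lines are the median of all tested probes. Otc and Oat lie lowest under each scaling for STAM-NON and Oat lowest for STAM-INS, while Nags, Ass1 and Glul cross 0 for STAM-INS under some of them.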

How the data were processed

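Liver RNA of 9 mice was hybridised to 1-colour Agilent SurePrint G3 Mouse GE arrays. The authors deposited the output of Agilent Feature Extraction 11.5.1.1 (named in the submitters' processing notes), in which spot intensity is linear, background-subtracted and not normalised between arrays, beside raw signals and flags. Neither a normalisation nor a test is given for the arrays in the study's methods. Groups and replicate numbers came from the labels.

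Control spots and spots flagged as outliers were dropped, 4 of the 180 spots of the members among them. The deposited intensity was taken to log2, the 75th percentile of all non-control spots of an array was subtracted, and spots of 1 probe were averaged. A probe entered the tests if a share of 0.5 or more of its spots stood well above background on each array of 1 group or more, which left 26278 of 55681 probes. On each array 46.2% to 65.0% of spots were well above background. The files carry no gene names. Accessions were matched, without versions, to a RefSeq table of GRCm38.p6, which named 27656 probes. The array design was built on another assembly, mm9, so no probe coordinates are given.

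Differences were fitted in R 4.3.3 by lmFit and eBayes of limma 3.58.1 (two-sided) on all 9 arrays, with 6 residual degrees of freedom, and adjusted by the Benjamini-Hochberg method over all tested probes at a threshold of 0.05. The scripts were tested on simulated data. A gene is represented by its brightest tested probe, and percentages of Normal compare geometric means. Named are all members, list genes past the threshold, up to 4 others per list with the largest difference between STAM-NON and Normal or that carry a step of the pathway (the latter chosen after their values were seen), and 3 genes of like pattern per member that passed. The members and the lists were chosen with earlier results of these data known. Promoter sequences were listed for 5 of the 9 members (Otc, Ass1, Nags, Glul and Oat). Alternatives were other background corrections, scalings, filters, probe rules, variance models, blocks and leaving out each array. Some results for single genes are not reported here.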

Additional observations from a re-analysis of the deposited data

How the results depend on the processing

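With 3 mice per group, most calls lay near the threshold. In STAM-NON against Normal, 3 members passed. It was 1 with normexp background correction, with the spike-in controls, with the percentile over detected probes and with only the 2 groups compared, beside 3524, 3195, 3131 and 2180 calls over all probes. It was 0 with quantile normalisation, with no filter on dim probes and with slide row as a block, beside 3066, 250 and 15. It was 4 with only probes detected on all arrays and with an intensity trend and robust variance, beside 4152 and 4999 calls against 4220 in the main fit. By unadjusted p it was 5, beside 9396 of 26278 probes (35.8%). Leaving out each array gave 0 to 3. In STAM-INS against Normal, 3 passed. It was 1 with normexp, beside 3577 calls over all probes against 3647 in the main fit. It was 0 with quantile normalisation, with the spike-in controls, with the percentile over detected probes and with no filter, beside 3208, 2206, 2975 and 572. It was 5 with only the 2 groups compared, beside 5194, and 0 to 4 when each array was left out. In STAM-INS against STAM-NON it was 0 under every alternative run. Over all probes, calls in STAM-NON against Normal fell from 4220 to 250 with no filter, 2180 with only the 2 groups, and 15 with slide row as a block. In that last fit STAM-NON and Normal share no row and meet only through STAM-INS, whose arrays in row 2 lay on another slide than those of Normal.

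The difference of Cps1, Otc, Arg1, Asl, Oat and Gls2 from Normal stayed below 0 in all 23 alternatives for both STAM groups. Ass1 turned to 0.043 (STAM-NON) and 0.15 (STAM-INS) with normexp and to 0.061 (STAM-INS) with quantile normalisation. In STAM-INS against Normal, Nags turned to 0.14 with normexp, 0.014 with quantile normalisation, 0.047 with the spike-in controls and 0.015 with the percentile over detected probes, and Glul to 0.074 with normexp and 0.023 with quantile normalisation. In STAM-INS against STAM-NON, slide row as a block turned Cps1 to 0.26, Asl to 0.043, Arg1 to 0.034 and Oat to 0.47, and the spike-in controls turned Ass1 to -0.022 and Gls2 to -0.030. Leaving out an array turned differences of this comparison too, with ranges of -0.13 to 0.17 for Cps1, -0.058 to 0.23 for Ass1, -0.29 to 0.35 for Gls2 and -1.10 to 0.17 for Oat. The causes were not tested. Of the 31 differences of list genes that passed against Normal, 0 changed sign in the 23 alternatives, and 2 passed in all of them, Asns and Slc1a4 in STAM-INS livers. The others lost the call in 1 to 17 alternatives.

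The replicate numbers do not pair the mice: deviations of arrays with the same number correlated at -0.29 to 0.15. With the replicate block 0 members passed against Normal in either STAM group and 0 in STAM-INS against STAM-NON. Slide as a block was not run, since it cannot be told apart from group in comparisons with Normal and is shared by the STAM groups. Normexp used the median spot signal.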
